A study of Homo sapiens with 24 samples.

Results

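The HOX genes were taken as every entry of the deposited count file whose symbol is HOX, a cluster letter from A to D and a number, which gave 39 of 36468 entries. They were measured by RNA sequencing in sensory neuron cultures made from H9, a line of human embryonic stem cells (labelled H9WAO9, wild type). Cells were driven to vagal neural crest over 12 days, kept as spheroids for 4 days, differentiated for 6 days and then matured. In each of 6 batches of differentiation, 1 culture received Vehicle, 1 TGF-β at 2 ng/ml, 1 the type 2 cytokines IL-4 at 10 ng/ml and IL-13 at 3 ng/ml (IL-4+IL-13 in the plots), and 1 IL-6, which makes 24 libraries. Treatment lasted 5 days for TGF-β and for the type 2 cytokines, given together, and for IL-6 neither the dose nor the time is in the labels. All libraries share the line and, by the study's methods, the protocol with retinoic acid, WNT activation and dual SMAD inhibition. They are whole cultures, so fewer cells that express a gene and less RNA per cell cannot be told apart.

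HOX genes encode transcription factors that give cells of the hindbrain, neural crest and trunk their place along the head to tail axis. They lie in 4 clusters, and genes at the same place in different clusters form a paralog group. Groups with low numbers are switched on first and reach farthest forward, into the hindbrain. Groups with higher numbers are added towards the tail, in the order of the genes along the chromosome. Retinoic acid and WNT signals move cells to later groups, and the tissue in front of the hindbrain, which expresses OTX2, is free of HOX expression. The vagal neural crest arises beside the hindbrain and the foremost somites, and gives neurons to the vagal ganglia and the gut. HOX proteins bind DNA with partners of the PBX and MEIS families.

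All HOX proteins share the homeodomain, encoded by the homeobox. The homeoboxes below are of neighbours in cluster A whose levels separated the libraries: HOXA4, of group 4, ranged from 10 to 1259 reads, and HOXA5, of group 5, from 0 to 671. Each lies in exon 2 of 2 of its gene, in the coding sequence, on the minus strand of GRCh38, and was read from the genome with the GENCODE 44 annotation. Capitals mark the 18 bases that encode the core of the DNA-reading helix.
HOXA4: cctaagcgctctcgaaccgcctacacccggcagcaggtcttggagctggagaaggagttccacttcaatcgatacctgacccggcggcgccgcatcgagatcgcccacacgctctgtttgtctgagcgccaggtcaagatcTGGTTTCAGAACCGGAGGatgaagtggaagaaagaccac
HOXA5: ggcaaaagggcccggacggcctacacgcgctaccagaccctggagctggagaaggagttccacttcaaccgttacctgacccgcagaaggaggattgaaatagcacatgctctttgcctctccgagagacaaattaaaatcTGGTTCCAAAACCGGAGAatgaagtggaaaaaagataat
The HOXA4 homeobox lies at chr7:27129366-27129545 and that of HOXA5 at chr7:27141886-27142065. They were identical at 71.7% of bases. Over all 39 genes, the 42 pairs within a paralog group were identical at 69.4% to 90.6% of bases (median 81.7%) and the 699 pairs between groups at 47.8% to 91.1% (median 60.6%). The longest run of bases that any pair of homeoboxes shared was 51. In the same annotation 22 of the 39 genes overlap another HOX gene on the same strand. HOXB3 extends over HOXB4, HOXB5 and HOXB6, and HOXA3 over HOXA4, HOXA5 and HOXA6. How the counting divided reads between such genes, and whether it used the strand, is not given in the sources used here.

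The libraries held between 33342682 and 39817784 counted reads, and levels are given as CPM, the counts divided by the library total and scaled to counts per 1e6. The label of the type 2 cytokines held: ALOX15, an enzyme induced by both of the type 2 cytokines, was at 124.8 to 429.7 CPM in the 6 type 2 cytokine libraries and at most 0.553 CPM in the 18 others. TGFBI, a target of TGF-β, was higher in TGF-β than in Vehicle in 5 of 6 batches but lower in batch 2, at 432 against 521.5 CPM. SOCS3, which IL-6 signalling induces, was higher in IL-6 than in Vehicle in 4 of 6 batches, so the IL-6 label was not settled by it. The batch labels held less well. Likeness was measured by Pearson's r of log2(CPM + 1), with each gene centred on its mean in each treatment group. Over 17652 entries other than HOX genes, 21 of 24 libraries were most like a library of their own batch. The exceptions were Vehicle of batch 2, Vehicle of batch 4 and TGF-β of batch 4, the last of which was most like TGF-β of batch 3 (r = 0.76). The mean r of Vehicle of batch 2 with the other libraries of its batch was -0.0025. Results that rest on these batches are therefore given with and without them.

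The cultures expressed the HOX genes of the front of the axis. A gene was called counted in a library that had at least 10 of its reads. Of the 12 genes of groups 1 to 4, 10 were counted in all 24 libraries. Of the 11 genes of groups 5 to 8, 9 were counted in at least 1 library and 1, HOXB5, in all. Of the 16 genes of groups 9 to 13, 2 were counted anywhere, and the highest count among them was 16. HOXC11, HOXC12, HOXD10 and HOXD12 had no read in any library, and a count of 0 over all 867110659 reads allows up to 0.00346 CPM (3 reads, counting error only). By cluster, 7 of 11 genes of cluster A, 8 of 10 of B, 3 of 9 of C and 5 of 9 of D were counted in at least 1 library.

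**Figure D1:**
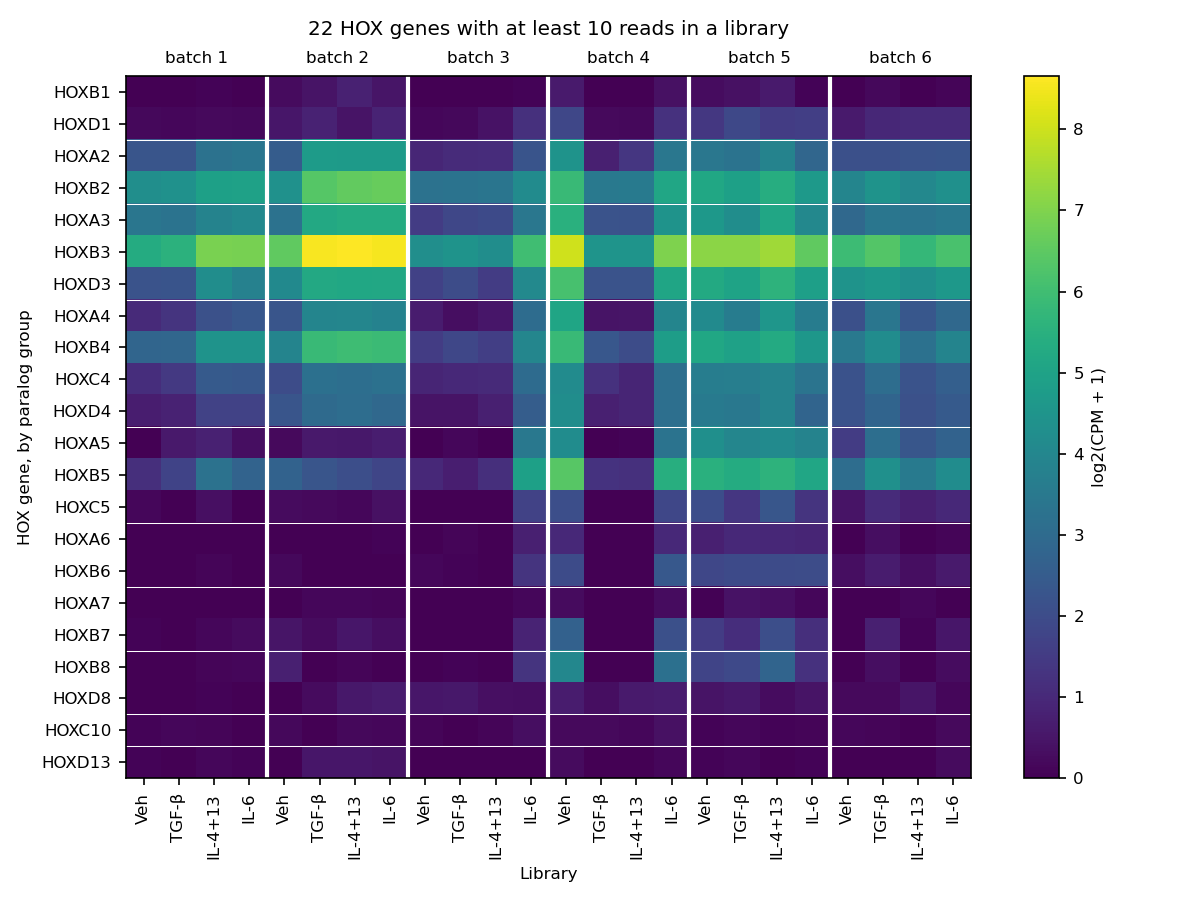
Level of 22 of the HOX genes with at least 10 reads in a library, as log2(CPM + 1) in colour, with genes in rows by paralog group and the 24 libraries in columns by batch and treatment. Groups 2 to 4 are bright in most columns, and groups 5 to 8 are bright throughout batch 5 and in Vehicle and IL-6 of batch 4 and IL-6 of batch 3.

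HOXB3 was the leading gene. It took 44.5% of all HOX reads, followed by HOXB2 with 11.4%, HOXB4 with 8.15% and HOXD3 with 8.05%. Per kilobase of annotated transcript, the mean level over the 6 Vehicle libraries was 30.9 ± 27.1 CPM per kb (SD, n = 6) for HOXB3, 15.1 ± 10.5 for HOXB2, 12.8 ± 17.9 for HOXB5, 10.3 ± 10.6 for HOXB4 and 10.2 ± 10.3 for HOXD3. The genes rise and fall together between libraries, so neighbours in this order were compared within libraries. HOXB3 was above HOXB2 in 6 of 6 Vehicle libraries, by a log2 ratio per kilobase of 0.81 ± 0.54 (SD). The ratio was 1.61 ± 1.80 for HOXB2 to HOXB5 (higher in 4 of 6), -0.57 ± 1.06 for HOXB5 to HOXB4 (2 of 6) and 0.11 ± 0.57 for HOXB4 to HOXD3 (5 of 6), and these 3 pairs did not differ beyond their spread. HOXA4 and HOXA3 led cluster A per kilobase, at 5.79 ± 7.64 and 5.21 ± 5.21 CPM per kb, and HOXC4 led cluster C, at 3.68 ± 3.90. In hindbrain development, paralogs of groups 2 and 3 mark rhombomeres in the middle and back of the hindbrain, and group 4 its hindmost part.

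Group 1 had fewer reads than group 2 in each library. HOXD1 was counted in 16 libraries with at most 97 reads. HOXB1, which marks the fourth rhombomere, reached 10 reads in 7 libraries and 27 reads at most, and these lay in batches 2, 4 and 5.

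The most posterior group that was counted in all 4 libraries of a batch was group 5 in batches 1, 2, 3, 4 and 6, and group 8, through HOXB8, in batch 5. In batches 1 to 4 HOXB5 alone carried group 5 in every library, while in batch 6 HOXA5, HOXB5 and HOXC5 did so. The number of HOX genes counted in all libraries of a batch was 11 in batches 1, 3 and 4, 12 in batch 2, 14 in batch 6 and 18 in batch 5. The limit moved with the rule. With at least 10 reads in any 1 library it was group 5 in batch 1, group 13 in batch 2, group 8 in batches 3, 5 and 6 and group 10 in batch 4. Group 13 in batch 2 rests on HOXD13, with 15, 16 and 13 reads in its TGF-β, type 2 cytokine and IL-6 libraries and none in Vehicle. Group 10 in batch 4 rests on 12 reads of HOXC10 in IL-6.

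**Figure D2:**
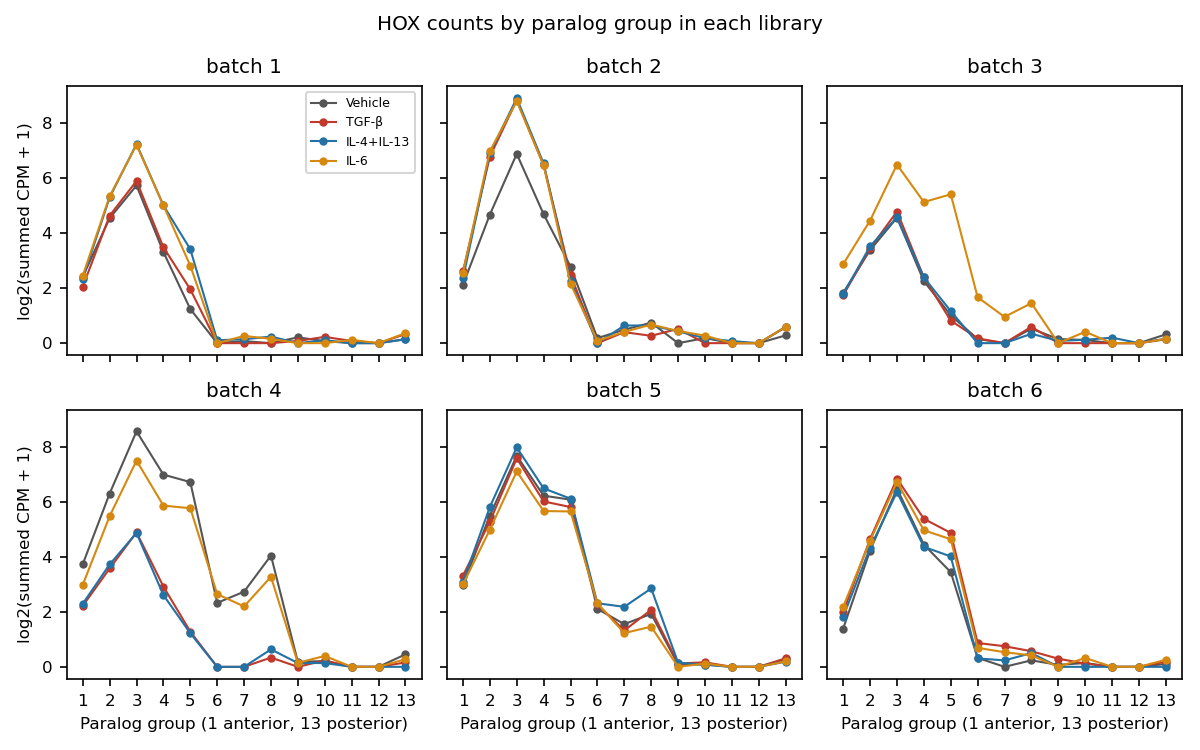
Summed CPM of each paralog group, as log2(summed CPM + 1), in the 4 libraries of each batch, with group 1 (anterior) on the left and group 13 (posterior) on the right. All libraries peak at group 3; the lines of batch 5 stay up to group 8, those of batches 1 and 2 fall under 1 after group 5, and in batches 3 and 4 the libraries part.

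The summed HOX level ranged from 40.3 to 721 CPM. In batch 5 the summed HOX level was 401.9 CPM in Vehicle, 364 in TGF-β, 483 in type 2 cytokines and 279.8 in IL-6. In batch 6 it was 139, 212, 138 and 187 CPM in the same order. In batch 1 it was 89.3, 98.9, 233 and 228 CPM. Within these batches the highest library exceeded the lowest by 1.73, 1.54 and 2.61 times. In batch 2 the Vehicle library, at 177 CPM, lay below the 3 treated ones, at 660.5, 696 and 666 CPM. In batch 3 Vehicle, TGF-β and type 2 cytokines held 40.3, 44.5 and 41.9 CPM and IL-6 held 197 CPM. In batch 4 Vehicle held 721 CPM and IL-6 358 CPM, against 51.7 in TGF-β and 51.4 in type 2 cytokines, a 14.02-fold range. Batches 2, 3 and 4 were thus split within themselves, each along a different line of treatments. Batch 1 was split too, by less, with type 2 cytokines and IL-6 above Vehicle and TGF-β.

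The mix of paralogs was split in the same places. The share of HOX reads in groups 5 to 13 was 18.6% (Wilson 95% interval 17.97 to 19.3%, counting error only), 17.6%, 17% and 20.1% in Vehicle, TGF-β, type 2 cytokines and IL-6 of batch 5. In batch 6 the shares were 7.58%, 14.5%, 11.6% and 13.8%, and in batch 1 1.93%, 3.45%, 4.36% and 2.94%. In batch 2 the share was 4.22% (3.76 to 4.73%) in Vehicle and 0.908%, 0.862% and 0.8286% in the treated libraries. In batch 3 it was 4.98%, 3.38% and 4.59% in Vehicle, TGF-β and type 2 cytokines, and 23.8% (22.8 to 24.8%) in IL-6. In batch 4 it was 18.01% (17.6 to 18.5%) in Vehicle and 19.95% in IL-6, against 3.84% and 4.05% in the others. A high total did not go with a posterior mix in every batch: the treated libraries of batch 2 had among the highest totals and the lowest shares.

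**Figure D3:**
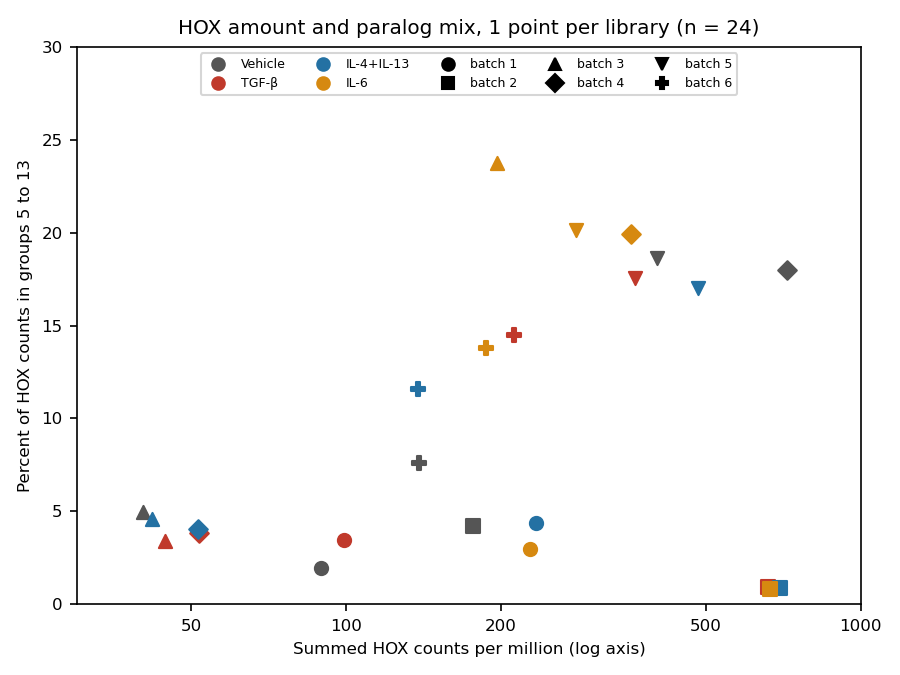
Summed HOX CPM (log axis) against the percent of HOX reads in paralog groups 5 to 13, with 1 point per library, coloured by treatment and shaped by batch. Batch 5, Vehicle and IL-6 of batch 4 and IL-6 of batch 3 lie between 17% and 23.8%, and the 3 treated libraries of batch 2 lie under 1% at 660.5 to 696 CPM.

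Group 5 made most of this difference. HOXA5, a gene of the caudal hindbrain and cervical level, had 630, 490, 596 and 467 reads in Vehicle, TGF-β, type 2 cytokines and IL-6 of batch 5. It had 671 and 335 reads in Vehicle and IL-6 of batch 4, and 0 and 2 in TGF-β and type 2 cytokines of the same batch. In batch 3 it had 360 reads in IL-6 and 0, 4 and 0 in the others. In batch 6 it had 76, 270, 134 and 200 reads, and in batches 1 and 2 no more than 29. Within batches 3 and 4, libraries were thus either high in HOXA5 or near 0. HOXA4, of group 4, was split between the same libraries: it was at 33.2 and 14.3 CPM in Vehicle and IL-6 of batch 4 against 0.379 and 0.402 in the others, and at 7.28 CPM in IL-6 of batch 3 against 0.255 to 0.578.

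HOXB5 was read everywhere but ranged from 26 to 3152 reads. It was at 44.6, 38.7, 47.5 and 34.01 CPM in batch 5, at 83.0 and 41.9 CPM in Vehicle and IL-6 of batch 4, and at 1.43 and 1.28 CPM in TGF-β and type 2 cytokines of batch 4. In batch 3 it was at 29.3 CPM in IL-6 and at 0.662 to 1.24 CPM in the rest. HOXB8 was counted in 8 libraries: the 4 of batch 5 (81, 91, 213 and 47 reads), Vehicle and IL-6 of batch 4 (566 and 307), IL-6 of batch 3 (54) and Vehicle of batch 2 (25). HOXB8 was thus counted in the 7 libraries with the highest HOXB5, at 29.3 to 83.0 CPM, and in Vehicle of batch 2, where HOXB5 was at 5.53 CPM. HOXC6, HOXC8 and HOXC9, markers of brachial and thoracic levels, had at most 4, 2 and 7 reads.

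Across the 24 libraries the genes varied along 2 lines. With HOXB3, the log2(CPM + 1) of HOXB4 had r = 0.98, HOXA2 0.98, HOXB2 0.97 and HOXA3 0.97. With HOXB5, HOXA5 had r = 0.96, HOXC5 0.94, HOXB6 0.90 and HOXD1 0.90, although HOXD1 belongs to group 1. HOXB3 and HOXB5 had r = 0.51 with each other. HOXA4, HOXC4 and HOXD4, of group 4, stood between them, with r of 0.89, 0.85 and 0.84 to HOXB3 and 0.81, 0.86 and 0.84 to HOXB5. HOXD8 went with neither (0.13 and 0.18). Its reads, at most 22, were spread over libraries with high and low HOX totals, and it was counted in TGF-β and Vehicle of batch 3, where HOXA5 was near 0. HOXD13 went with HOXB3 (0.77) and not with HOXB5 (0.03). Libraries of a batch share their culture and overlapping genes may share reads, so these values are descriptions with no test.

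Compared over the 23 counted HOX genes, 14 of 24 libraries were most like a library of their own batch, against 21 over the other entries. TGF-β and type 2 cytokines of batch 4 were most like each other (r = 0.97), and their mean r was 0.79 and 0.81 with batch 3 but 0.06 and 0.06 with their own batch. Vehicle of batch 4 was most like type 2 cytokines of batch 5 (r = 0.93) and had a mean r of -0.31 with its own batch. IL-6 of batch 3 was most like IL-6 of batch 5 by its HOX genes (r = 0.80) but most like TGF-β of batch 3 by the other entries (r = 0.77). The HOX genes and the rest of the transcriptome thus placed that library differently. Type 2 cytokines and IL-6 of batch 1 were most like libraries of batch 2 by their HOX genes (r = 0.71 with TGF-β and 0.76 with Vehicle) but like their own batch by the other entries. Why these libraries went against the labels of their batch was not tested.

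Batch was tested for all entries with edgeR's quasi-likelihood F test over 24 libraries, with treatment in the model and Benjamini-Hochberg adjustment. It called 16696 of 29377 entries, 56.8%, at an adjusted p under 0.05. Of the 30 HOX genes with enough reads to be tested, 15 were called, a share close to that of all entries. These were 9 of 12 genes of groups 1 to 4, 6 of 9 of groups 5 to 8 and 0 of 9 of groups 9 to 13. HOXB6 (adjusted p = 0.00126) and HOXB2 (0.00185) were among the genes called by this edgeR test. HOXB5 was not called (adjusted p = 0.0569 in edgeR's quasi-likelihood test), with libraries from both ends of its range in batches 3 and 4.

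Without batches 3 and 4, edgeR's quasi-likelihood test called 21 of 28 HOX genes (75.0%) for batch, against 14013 of 28210 entries (49.7%). All 12 genes of groups 1 to 4 and all 9 of groups 5 to 8 were among them, HOXB5 with an adjusted p of 2.54e-04 in edgeR's test. This setting was added after the values of those batches had been seen. Batches 3 and 4 were split in their HOX genes, and leaving them out takes that spread within batches away. The shares of 75.0% and 49.7% are therefore not a fair comparison. Without batch 2 the count was 6 of 26 (53.6% of all entries), without batch 1 it was 9 of 28 (43.5%) and without batch 5 it was 9 of 30 (55.5%), so that the count of HOX genes called for batch depended on single batches. Over all entries a median of 55.8% of the variance of log2(CPM + 1) lay between batches, and over the 30 HOX genes the median was 53.7%.

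No HOX gene was called for any treatment. With TGF-β, edgeR's quasi-likelihood test called 6 of 28701 entries (0.0209%) and 0 of 28 HOX genes, where a call needed a log2 fold change beyond 1 in size besides an adjusted p under 0.05. With type 2 cytokines it called 72 entries (0.251%) and 0 of 28 HOX genes, and between TGF-β and type 2 cytokines 257 entries (0.895%) and 0 of 28. With IL-6 it called 0 of 29377 entries (0.0%) and 0 of 30 HOX genes, and DESeq2 called 120 entries and 0 HOX genes. At an unadjusted p under 0.05, the same edgeR test gave 0 HOX genes in each of the 4 comparisons, against 1744 (6.08%), 2144 (7.47%), 3027 (10.5%) and 1400 (4.77%) of all entries. DESeq2 called 0 HOX genes in all 4 comparisons. Unadjusted calls appeared when batch 4 was left out: edgeR gave 13 of 30 HOX genes for IL-6 (8.84% of all entries), 5 of 27 for type 2 cytokines (11.5%) and 1 of 27 for TGF-β (7.29%). Without batches 3 and 4 it gave 3 of 28 for IL-6 (7.87%), 8 of 27 for type 2 cytokines (10.8%) and 0 of 27 for TGF-β (6.05%). No HOX gene passed the adjusted threshold in these settings. The smallest adjusted p of a HOX gene in edgeR's test was 0.939 for TGF-β, 0.724 for type 2 cytokines, 0.85 for IL-6 and 0.534 between TGF-β and type 2 cytokines.

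The spread between batches limited what could be seen. For HOXB3, edgeR's log2 fold change was -0.23 ± 0.65 (SE, 6 pairs of libraries) with TGF-β, -0.05 ± 0.66 with type 2 cytokines and 0.41 ± 0.58 with IL-6. For HOXB5 it was -0.87 ± 0.97, -0.53 ± 0.99 and 0.72 ± 1.02. Changes within these errors were not detectable. Values beyond 1 SE were not called either: HOXB6 with TGF-β, given next, had an unadjusted p of 0.18 in edgeR's quasi-likelihood test. The members with the smallest unadjusted p and at least 10 reads in a library were HOXB6, at -1.67 ± 1.18 with TGF-β and -1.97 ± 1.20 with type 2 cytokines, HOXB8, at -2.62 ± 1.89 with TGF-β, and HOXA6, at 1.60 ± 1.60 between TGF-β and type 2 cytokines. The others with the smallest p, HOXB13, HOXC13, HOXC9, HOXA10 and HOXB9, had at most 6, 9, 7, 3 and 6 reads in a library, too few for a fold change.

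For TGF-β and type 2 cytokines the signs for HOXB3 and HOXB5 turned when batch 4 was left out. Those for HOXB6 and HOXB8 stayed below 0 whichever single batch was left out. In batch 4 summed HOX counts were 13.95 times higher in Vehicle than in TGF-β and 14.02 times higher than in type 2 cytokines, while in batch 2 they were 3.74 and 3.94 times higher in TGF-β and type 2 cytokines than in Vehicle. In batches 3 and 5 the ratio of treated to Vehicle was 1.10 and 0.906 for TGF-β and 1.04 and 1.20 for type 2 cytokines. In batch 6 it was 1.53 and 0.995, and in batch 1 it was 1.11 and 2.61. Median log2 fold changes over the tested HOX genes were -0.29 with TGF-β and -0.28 with type 2 cytokines, with 23 of 28 below 0 in each, where the median of all entries was 0.00 and 50.5% and 50.1% lay below 0. These comparisons share their Vehicle libraries. Over the 23 genes counted in at least 1 library the medians were -0.31 with TGF-β and -0.22 with type 2 cytokines. Without batch 4 these medians turned to 0.48 and 0.74, with 4 and 3 of 23 genes below 0. Without batch 4, the log2 fold change of HOXB3 turned to 0.53 with TGF-β and 0.73 with type 2 cytokines, and that of HOXB5 to 0.18 and 0.55.

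**Figure D4:**
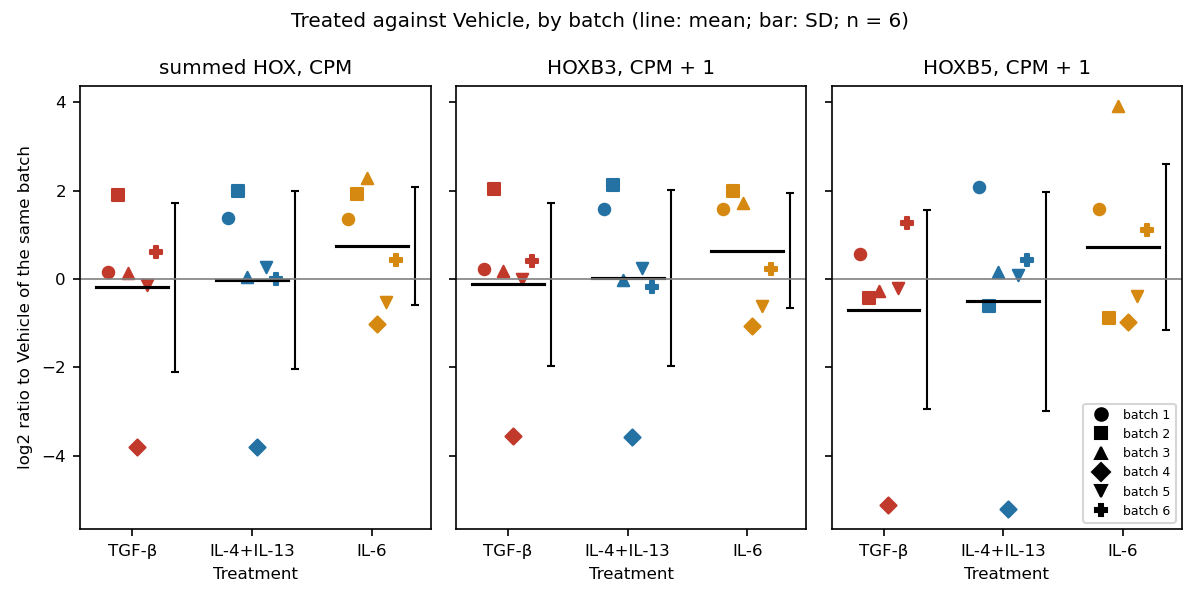
Log2 ratio of each treated library to the Vehicle library of its batch, for summed HOX CPM, for HOXB3 and for HOXB5 (1 CPM added for the single genes). Points are batches, horizontal lines the mean and bars the SD over 6 batches; batch 4 lies far below 0 for TGF-β and type 2 cytokines, and the bars of all treatments include 0.

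For IL-6, the median log2 fold change over the 30 tested HOX genes was 0.57, against -0.01 over all entries, and 4 of 30 lay below 0. Over the 23 genes counted in at least 1 library it was 0.58, with 0.09 without batch 3 and 1.25 without batch 4. Summed HOX counts were higher than in Vehicle in 4 of 6 batches, by 2.55 times in batch 1, 3.77 in batch 2, 4.88 in batch 3 and 1.35 in batch 6. They were lower in batches 4 and 5, at 0.497 and 0.696 of Vehicle. Without batch 3 the log2 fold change of HOXB5 with IL-6 turned to -0.22, while that of HOXB3 stayed above 0 whichever batch was left out (0.11 to 0.99).

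The mean log2 ratio of summed HOX counts to Vehicle over 6 batches was -0.19 ± 1.91 (SD) for TGF-β, -0.02 ± 2.02 for type 2 cytokines and 0.74 ± 1.33 for IL-6. Exact two-sided sign-flip permutation tests over the 6 batches gave p = 0.938, 0.969 and 0.25, where the smallest p they can give is 0.03125. The share of reads in groups 6 to 13 differed from Vehicle by -0.462 ± 1.16 percentage points with TGF-β, -0.46 ± 0.994 with type 2 cytokines and 0.343 ± 0.695 with IL-6 (exact sign-flip permutation p = 0.469, 0.344 and 0.313). The share in groups 5 to 13 differed by -1.95 ± 6.96, -2.15 ± 6.37 and 4.35 ± 7.70 percentage points (exact sign-flip permutation p = 0.594, 0.594 and 0.219). After Benjamini-Hochberg adjustment over these 9 permutation tests, no p was below 0.763.

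The partners and upstream pathways of the HOX genes gave no treatment call either. Of 9 HOX cofactors, 15 chromatin regulators of the clusters, 18 genes of the retinoic acid pathway and 7 posteriorizing factors, edgeR tested 9, 15, 18 and 5. It called 0 of each for TGF-β, type 2 cytokines, IL-6 and between TGF-β and type 2 cytokines. Of all entries it called 0.0209%, 0.251%, 0.0% and 0.895% in the same order. At such low shares, 0 calls in lists this short say little about these genes. For batch, the same test called 8, 13, 15 and 2 of them, where it called 56.8% of all entries. The posteriorizing factors CDX1, CDX2, CDX4, TBXT and FGF8, which act upstream of trunk HOX genes, reached 10 reads in no library. The other two factors, GDF11 (3225 to 4962 reads) and WNT3A (142 to 2958 reads), were counted in all 24 libraries, and WNT3A had r = 0.68 with the HOX total across libraries and 0.86 after removing batch means.

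MEIS1, which encodes a DNA-binding partner of HOX proteins, moved with the HOX total. It was at 127.7 and 70.4 CPM in Vehicle and IL-6 of batch 4, and at 29.6 and 36.01 CPM in TGF-β and type 2 cytokines. In batch 2 it was at 64.2 CPM in Vehicle and at 134.8 to 139.4 CPM in the treated libraries. Across the 24 libraries its log2(CPM + 1) had r = 0.96 and Spearman's rho = 0.95 with the log2 of summed HOX CPM, 0.95 without the 2 libraries farthest from the median, and 0.94 after removing the mean of each batch. MEIS2, with r = 0.85 and rho = 0.89, went the same way. These are descriptions with no p, since libraries of a batch are not independent.

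Markers of other regions and cells differed between the same libraries, some with and some against the HOX total. OTX2, which marks forebrain and midbrain, had 2419 to 8760 reads in every library and was lowest, at 65.7 CPM, in Vehicle of batch 4, the library with the highest HOX total. Of the 7 forebrain and midbrain markers, 4 were counted in all libraries, with a summed level of 93.9 to 292 CPM. The summed list had r = -0.49 with the HOX total across libraries (-0.74 after removing batch means) and OTX2 had -0.43 (-0.70), while DMBX1 and EN2 of the same list had 0.66 and 0.55. Of 3 hindbrain markers, 2 were counted in all libraries, with a summed level of 25.5 to 158.0 CPM and r = 0.74. The part of such regions in the HOX differences was not tested.

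All 4 markers of proliferating cells were counted in every library. Their summed level was 315.8, 434 and 366 CPM in the TGF-β, type 2 cytokine and IL-6 libraries of batch 2, 57.7 CPM in its Vehicle and 15.2 to 132.8 CPM elsewhere. In batch 4 it was 127.6 and 99.4 CPM in Vehicle and IL-6 and 49.2 and 48.2 CPM in TGF-β and type 2 cytokines. SOX2, of neural progenitors, was at 144.8 to 173.3 CPM in the treated libraries of batch 2 and at 8.10 to 48.6 CPM elsewhere. PAX6, another gene of the same list of 5 progenitor markers, went the other way, with r = -0.62 to the HOX total against 0.82 for SOX2, and the summed list had r = -0.07. Of the 4 pluripotency markers, POU5F1 and NANOG were counted in no library, and LIN28A (31 to 121 reads) and DPPA4 (236 to 1832 reads) in all. Their summed level was 50.5 to 54.5 CPM in the treated libraries of batch 2 and 18.4 CPM in its Vehicle. Within batches 2 and 4, the libraries with the higher HOX totals thus held more of the proliferation markers as well, and the part of these cells in the HOX counts was not tested. In batch 3, where IL-6 alone had a high HOX total, its proliferation markers summed to 40.2 CPM, within the range of the other libraries of its batch (21.5 to 40.6 CPM).

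**Figure D5:**
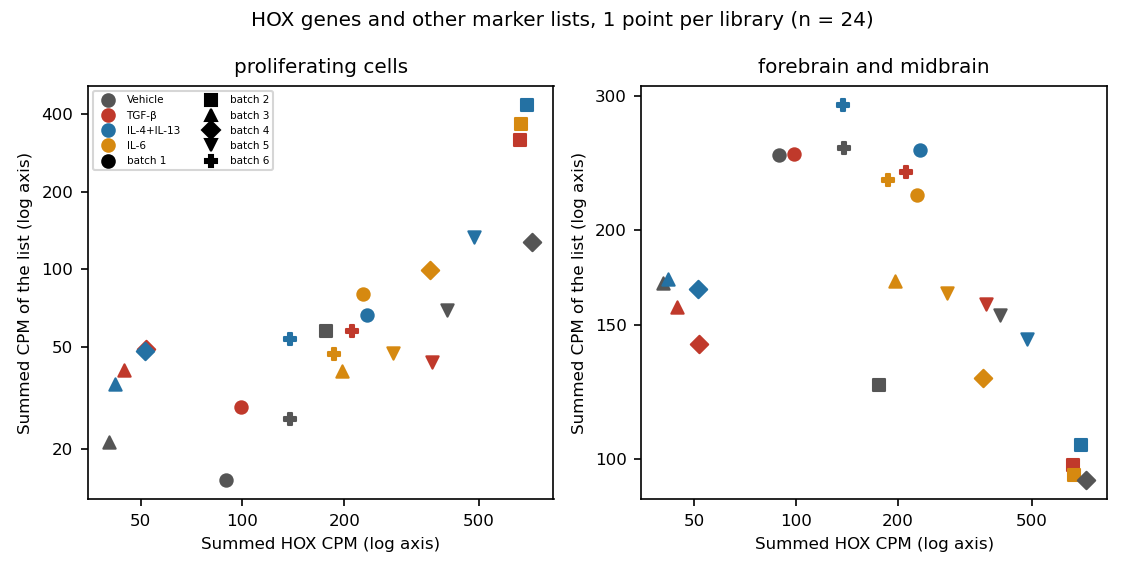
Summed HOX CPM against the summed CPM of the 4 proliferation markers (left) and of the 7 forebrain and midbrain markers (right), with log axes and 1 point per library. The treated libraries of batch 2 are highest in proliferation markers, at 315.8 to 434 CPM, and Vehicle of batch 4 is lowest in forebrain and midbrain markers, at 93.9 CPM.

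Neurons were present in all libraries, and the summed level of 5 neuron markers had r = -0.02 with the HOX total. The neuron marker TUBB3 was at 209 to 1216 CPM, and the sensory neuron marker POU4F1 at 1.65 to 53.8 CPM. HAND2, of autonomic neurons, was counted in no library.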

How the data were processed

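The authors' sequencing provider used Trimmomatic 0.30 and the build GRCh38.p14. Raw counts per entry were deposited, neither normalized nor pooled. The aligner, counting tool and strandedness are not given in the sources used here. Entries with a total count under 10 over a fit were left out. The main test was edgeR 4.0.16's robust quasi-likelihood F test (TMM factors, terms for treatment and batch, p adjusted by Benjamini-Hochberg) over 24 libraries for IL-6 and batch and over the 18 libraries without IL-6 otherwise, with DESeq2 1.42.0 beside it. SEs come from dividing the size of a log2 fold change by the root of its F. CPM used total counts. All members may be named; values are given for the 3 with the smallest p per treatment comparison, the leading gene per cluster, the most posterior member per batch and the 5 most variable between batches. Members and lists were chosen with earlier results of these data known. The fits were tested on simulated counts, with a spread between replicates set lower than that of HOX genes such as HOXB3, so they do not show what could be called for these. Libraries share batch numbers, which the labels give; 32 of 36 same-batch pairs had r over 0.1 over entries other than HOX genes. Nothing says that a batch's 4 cultures were grown apart, so p-values measure the spread between these libraries. HOX cluster noncoding RNAs were not analysed here, and some genes and sequences are not reported here. Alternatives are given in the closing section.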

Additional observations from a re-analysis of the deposited data

Results flagged for a closer look

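In each treatment group of 6 libraries and each batch of 4, the summed HOX level, the shares of groups 5 to 13 and 6 to 13, and HOXA5, HOXB3, HOXB5 and HOXB8 were searched for a library far from the others by Dixon's criterion. Such a library was found in 20 of 70 sets. Chance gives about 1 in 20 where values follow a normal distribution, which was not checked for these CPM and shares. The sets share libraries and were chosen with earlier results known, so the count is a description and not a test.

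IL-6 of batch 3 stood above its batch in summed HOX level (197 CPM, next 44.5), in the share of groups 5 to 13 (23.8%, next 4.98%), and in HOXA5 (9.93 CPM, next 0.102), HOXB3 (63.3 CPM, next 20.9), HOXB5 (29.3 CPM, next 1.24) and HOXB8 (1.49 CPM, next 0.0509). Vehicle of batch 2 stood below its batch in summed HOX level (177 CPM, next 660.5) and HOXB3 (91.8 CPM, next 368.5). It stood above its batch in the share of groups 5 to 13 (4.22%, next 0.908%), the share of groups 6 to 13 (0.887%, next 0.310%) and HOXB8 (0.675 CPM, next 0.0800).

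Among the IL-6 libraries, batch 2 stood apart in summed HOX level (666 CPM, next 358) and HOXB3 (368.5 CPM, next 125.1), and batch 4 in HOXB8 (8.08 CPM, next 1.49). Among the TGF-β libraries, batch 2 stood apart in HOXB3 (382 CPM, next 140.5) and batch 5 in HOXB8 (2.73 CPM, next 0.255). Among the type 2 cytokine libraries, batch 5 stood apart in HOXA5 (16.7 CPM, next 3.95), HOXB5 (47.5 CPM, next 10.5) and HOXB8 (5.98 CPM, next 0.0800). Among the Vehicle libraries, batch 4 stood apart in HOXB8 (14.9 CPM, next 2.41).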

How the results depend on the processing

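The count of HOX genes called for TGF-β, for type 2 cytokines, for IL-6 and between TGF-β and type 2 cytokines was 0 under every alternative run: DESeq2, other size factors and filters, the other set of libraries, adjusted p alone, no replicate block (0 in each comparison), and leaving out Vehicle of batch 2, each batch in turn, or batches 3 and 4. The batch block thus changed no call. The count called for batch ranged from 6 to 20 when a batch was left out.

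Signs turned when batches were left out. The mean log2 ratio of summed HOX counts to Vehicle ranged from -0.61 to 0.53 for TGF-β and from -0.42 to 0.74 for type 2 cytokines, with the highest values without batch 4 (exact permutation p = 0.1875 and 0.125, where 5 batches cannot give less than 0.0625). For IL-6 it stayed above 0, from 0.43 without batch 3 to 1.09 without batch 4. Leaving out 1 batch, the log2 fold change with TGF-β ranged from -0.64 to 0.53 for HOXB3, -1.50 to 0.18 for HOXB5, -2.79 to -0.14 for HOXB6 and -4.17 to -0.21 for HOXB8. With type 2 cytokines it ranged from -0.46 to 0.73, -1.28 to 0.55, -3.08 to -0.40 and -4.36 to -0.006 for these genes. With IL-6 it ranged from -0.22 to 1.56 for HOXB5 and -0.76 to 1.15 for HOXB8. Between TGF-β and type 2 cytokines it ranged from -0.36 to 0.11 for HOXB3, -0.72 to 0.094 for HOXB5, -0.18 to 0.64 for HOXB6 and -1.23 to 1.32 for HOXB8, which DESeq2 gave as 1.08. Without batches 2 and 4, the values with TGF-β and type 2 cytokines were 0.20 and 0.44 for HOXB3, 0.42 and 0.89 for HOXB5, 0.29 and 0.02 for HOXB6 and 1.31 and 1.36 for HOXB8. Without batches 3 and 4, HOXB3 was at 0.63 with TGF-β and 0.91 with type 2 cytokines, HOXB5 at 0.32 and 0.60, HOXB6 at 0.042 with TGF-β and HOXB8 at -0.74 with IL-6. No replicate block gave 0.20 and 0.39 for HOXB3 with TGF-β and type 2 cytokines, and -0.11 and -0.65 for HOXB5 and HOXB8 with IL-6. In all these cases no call was made on either side.

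The posterior limit moved with the rule. At 3 or more reads in every library it was group 7, 8, 10, 13 and 8 in batches 2 to 6. At 10 or more in any library it was group 13, 8, 10 and 8 in batches 2, 3, 4 and 6. At 1 CPM in every library it was group 4 in batch 3 and stayed group 5 in batch 4. By that rule 6 HOX genes were counted in batch 3 and 7 in batch 4. The share in groups 6 to 13 of batch 5 was 2.51%, or 3.38% per kilobase and 2.08% in Vehicle alone. Vehicle alone gave 0.887% in batch 2 and 0.476% in batch 6, against 0.431% and 0.803%. Counting from group 5 the mean shares of batches 1 to 6 were 3.17%, 1.70%, 9.18%, 11.5%, 18.3% and 11.8%. The cause was not tested in any of these cases. Alternatives that leave out batches 3 and 4, or 2 and 4, or count from group 5 were chosen after seeing the data. Counts under 10 in a library are too few to compare, which limits most genes of groups 6 to 13.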
